A study of Mus musculus with 3 samples.

Results

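Ear skin of adult Langerin-DTA mice was compared directly with ear skin of young wild-type mice, by single-cell RNA sequencing, in 5 classes of cells. The question for each class was which genes set Langerin-DTA apart from both wild types and which only from one of them. Cells were assigned by raw counts of unique molecular identifiers (UMIs), each of which stands for 1 captured RNA molecule. Lymphatic endothelial cells had at least 2 Prox1 UMIs. Blood endothelial cells had at least 3 UMIs of Cdh5 plus Ptprb and none of Prox1 or Mmrn1, and keratinocytes had at least 0.3% of their UMIs from Krt5 plus Krt14. Fibroblasts had at least 2 Dpt UMIs, and gamma delta T cells at least 1 Trdv4 UMI with at least 1 of Cd3e plus Cd3g. Of 37961 cells kept over all 3 libraries of the series, 18239 lay in at least 1 of these gates in the libraries of Langerin-DTA and young wild type, and 17807 lay in exactly 1 and were used.

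The 3 groups were wild type at 4 weeks (young wild type; 5 males and 3 females), wild type at 8 weeks (adult wild type; 6 males and 4 females) and Langerin-DTA at 8 weeks (4 males and 6 females). Each was 1 library from pooled ears. The wild types are titled C57BL/6J, and the Langerin-DTA mice were bred as hemizygous males crossed to wild-type females. The transgene places the A chain of diphtheria toxin under regulatory sequence of human langerin, so the cells that switch it on die and the mice lack epidermal Langerhans cells throughout. Lymphatic endothelial cells, blood endothelial cells, CD45-positive leukocytes and CD45-negative CD31-negative cells were sorted and mixed in equal parts, so numbers of cells per class say nothing about their share in the ear. With 1 library per group no test was possible. Intervals given are exact 95% counting intervals of a ratio and hold no difference between mice or pools. Age and genotype differ together between Langerin-DTA and young wild type and cannot be told apart there, and the comparisons with young and with adult wild type share the Langerin-DTA library.

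Langerhans cells are the dendritic cells of the epidermis. They take up antigen between keratinocytes, where they sit beside the dendritic epidermal T cells of mice, which carry a gamma delta receptor built with the Trdv4 segment, and they leave the skin through dermal lymphatic vessels. Lymphatic capillaries are lined by cells that depend on the transcription factor Prox1, carry Lyve1 and secrete the chemokine Ccl21, which draws migrating dendritic cells bearing Ccr7.

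Levels are given as UMIs per 1000000 summed UMIs of a class (CPM), and 3 values in a row stand for young wild type, adult wild type and Langerin-DTA. Cd207, the gene of Langerin, had 25419, 17136 and 87 UMIs over all kept barcodes, and 640, 472 and 10 cells held at least 2. Gates held 3977, 1513 and 2279 lymphatic cells, 1655, 3394 and 2542 blood endothelial cells, 1275, 2370 and 2602 keratinocytes, 361, 339 and 450 fibroblasts and 1369, 1535 and 1297 gamma delta T cells, at median depths from 5076 to 15910 UMIs per cell. With the genes that set the gates left out of the marker lists, the summed level of a class's own list ran from 5171 CPM in lymphatic cells of Langerin-DTA to 51653 CPM in fibroblasts of adult wild type. In each library it was above the sum of the same list in the other gates, the nearest being the lymphatic list in blood endothelium (2074, 1729 and 1843 CPM). Cells in more than 1 gate (190, 205 and 242) were left out as possible doublets and no doublet caller was run. Pairs of libraries shared 39 to 50 cell barcodes. Female-called cells made up a larger share of called cells in Langerin-DTA, from 63.2% in lymphatic cells to 72.1% in gamma delta T cells, against 36.9% to 50.1% in young wild type. Genes named by their rank within a set were therefore taken only where male-called and female-called cells lay on the same side by at least 25% of the lower value. Genes given as members of a list or of a small set were not held to this.

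A gene counts as apart when it differed at least 2-fold, with at least 30 CPM in the higher library and at least 100 UMIs over both. "From young only" means at least 2-fold from young wild type and no more than 25% (of the lower value) from adult wild type, and "from adult only" the reverse. In lymphatic endothelium 1061 of 6375 genes tested were apart from young wild type, of which 692 (65.2%) were apart in the same direction from adult wild type too and 57 (5.37%) from young only. Blood endothelium had 125 genes apart from young wild type, keratinocytes 93, fibroblasts 236 and gamma delta T cells 176. In these 4 classes between 4.30% and 21.6% of them were apart from both wild types, and from 37.3% in fibroblasts to 79.6% in keratinocytes were at the level of adult wild type. Genes apart from young wild type in at least 4 of the 5 classes (34 higher and 7 lower) count in these shares. The shares are thus in part not particular to a class. Across genes, the interquartile range of log2 ratios over young wild type was 0.915 in lymphatic cells and 0.308 to 0.375 in the others, and over adult wild type 0.924 against 0.126 to 0.290. Between the wild types themselves (adult over young) it was 0.371 in lymphatic cells, so Langerin-DTA lay further from each of them than they lay from each other.

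**Figure D1:**
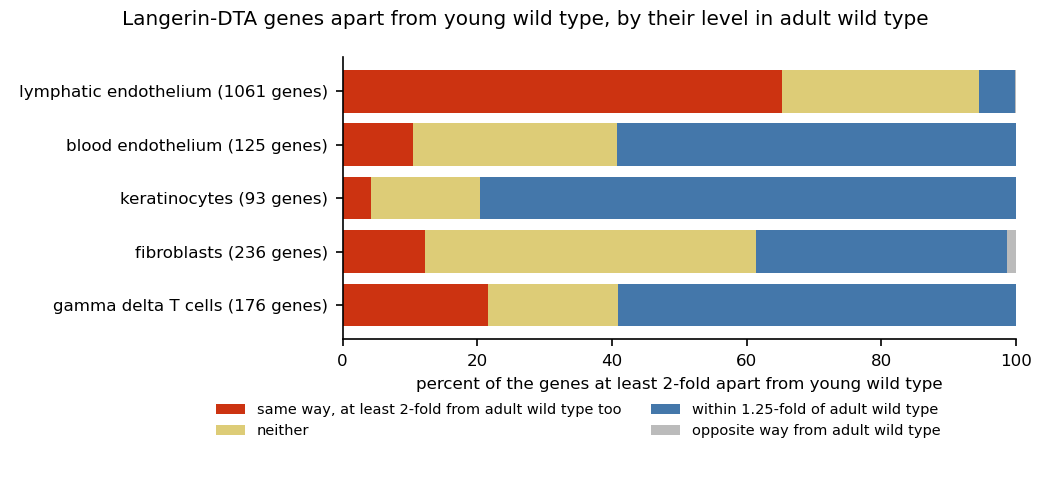
Genes at least 2-fold apart between Langerin-DTA and young wild type in each class (number in brackets), as the percent that was also at least 2-fold from adult wild type the same way, within 25% of adult wild type, opposite, or none of these. The first share is 65.2% in lymphatic endothelium and 4.30% in keratinocytes.

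In lymphatic endothelium 649 genes were higher in Langerin-DTA than in young wild type (10.2% of genes tested) and 412 lower (6.46%). Against adult wild type 651 were higher (10.3%) and 441 lower (6.97%). Apart from both were 443 higher and 249 lower genes. Of these, 438 of the 443 and 232 of the 249 reached at least 10% of the highest level of any gate in the library where they were higher. This rule, set against free RNA, took in the gated classes and source gates of other cells, such as myeloid cells and chondrocytes. Male-called and female-called cells lay on the same side for 442 of the 443 and 244 of the 249. Lymphatic cells of Langerin-DTA were the deepest of the 3 libraries (median 7917, 5076 and 9335 UMIs), and their marker sum was lower (12558, 16708 and 7816 CPM). Prox1 itself was at 1218, 1141 and 874 CPM.

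Among the genes higher than in both wild types, the first by the counting interval was Gm45847 (ENSMUSG00000109814; GRCm38 chromosome 7, 123031415 to 123068305), a long noncoding RNA gene. It was at 0.316, 0.446 and 109 CPM, that is at 11, 4 and 2552 UMIs. It is nearly absent from both wild types, and the annotation has a second noncoding gene, Gm45846, over the same stretch and strand. Ankrd1 (chromosome 19, 36111961 to 36120099), an ankyrin repeat protein known as a target of YAP, was at 0.833, 1.45 and 179.7 CPM, a log2 ratio of 7.75 (7.23 to 8.33) over young and 6.95 (6.18 to 7.87) over adult wild type. Fabp3, a fatty acid binding protein, was at 0.718, 0.446 and 70.7 CPM. The wild types lay close together and far below Langerin-DTA in all 3 genes.

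Gpnmb (chromosome 6, 49036546 to 49070929), a glycoprotein of lysosomes and melanosomes, was at 20.1, 23 and 449.6 CPM, a log2 ratio of 4.48 (4.37 to 4.59) over young and 4.29 (4.09 to 4.50) over adult wild type. At least 1 Gpnmb UMI was present in 11.5%, 10.2% and 54.1% of lymphatic cells. With each cell thinned to 3000 UMIs, which left out 286, 251 and 171 shallower cells, the shares were 4.99% (4.31 to 5.74), 6.50% (5.2 to 8.00) and 41.6% (39.5 to 43.7; exact binomial intervals for counting only). In blood endothelial cells, which gauge free RNA, the thinned shares were 0% (up to 0.235%), 0.125% and 1.70%. The antisense transcript 3300002A11Rik, which lies inside Foxn3 on the other strand, was at 2.79, 2.68 and 133 CPM, and Fam167a at 0.948, 1.0 and 31.8 CPM. Whether counting used the strand is not given in the sources used here, and reads of 3300002A11Rik and Foxn3 cannot be told apart.

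Named as lower than in both wild types were Cacna1e, Igfbp5, Hs6st3, Sbspon and Fibin. Cacna1e (chromosome 1, 154390731 to 154884501), a subunit of voltage-gated calcium channels, was at 166, 137 and 10.2 CPM, a log2 ratio of -4.01 (-4.21 to -3.83) over young and -3.74 (-3.94 to -3.54) over adult wild type. Igfbp5, a secreted protein that binds insulin-like growth factors, was the most abundant of these at 1178, 1313 and 174 CPM (-2.76, -2.80 to -2.71, and -2.91, -2.96 to -2.86). Igfbp5 UMIs were found in 56.5%, 65.1% and 12.0% of thinned lymphatic cells, beside 4.08%, 1.38% and 1.49% of blood endothelial cells and 5.80%, 11.8% and 12.9% of gamma delta T cells. The share in lymphatic cells of Langerin-DTA was thus not above that in the gamma delta gate of the same library (median depths 9335 and 5707 UMIs before thinning). Hs6st3, a heparan sulfate sulfotransferase, was at 97.5, 80.3 and 11.1 CPM, Sbspon at 42.1, 42.7 and 5.80 CPM and Fibin at 34.2, 31.2 and 4.35 CPM.

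**Figure D2:**
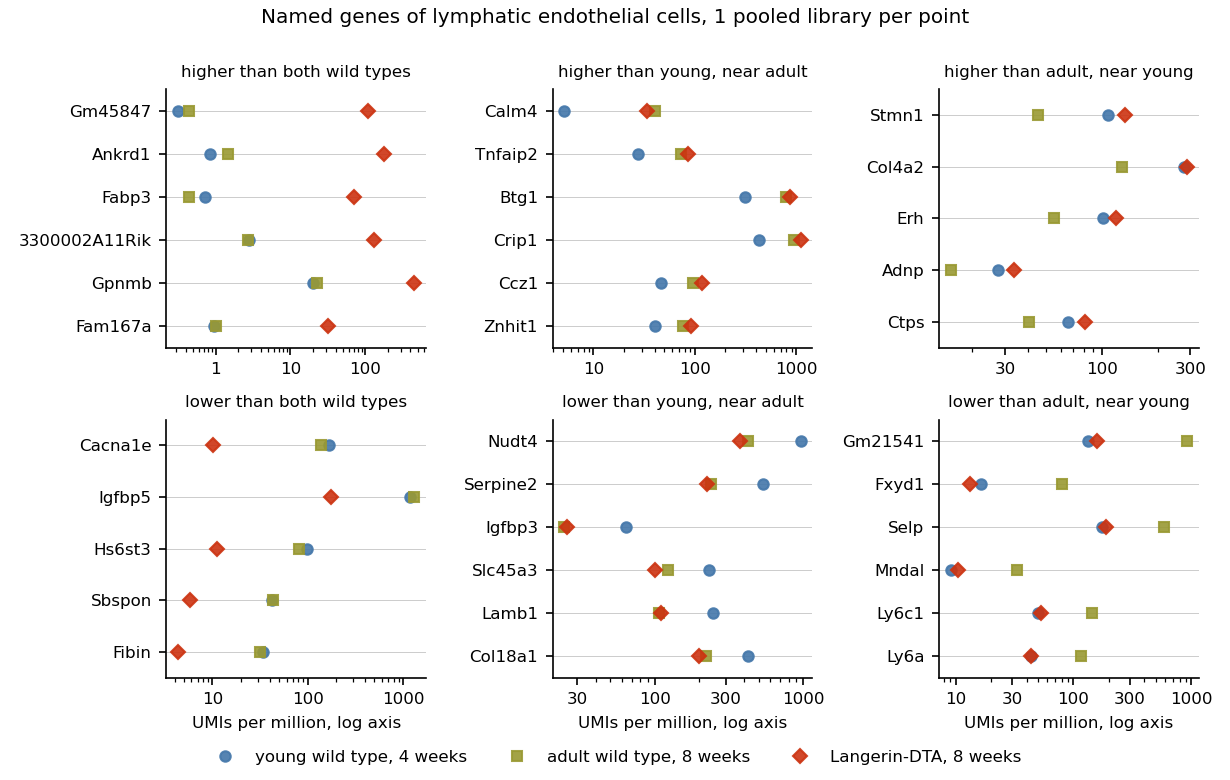
Levels of the named genes in lymphatic endothelial cells (x axis: CPM, log axis), 1 point per pooled library, for 6 sets of genes by direction and by the wild type from which Langerin-DTA is apart. In the left panels both wild types sit together, for example Gpnmb at 20.1 and 23 against 449.6 in Langerin-DTA.

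Of 28 genes on the list of lysosome and V-ATPase genes 21 were tested, and 11 were higher than in young wild type, 13 higher than in adult wild type and 11 higher than in both, with none lower, where 10.2% and 10.3% of all genes tested were higher. The median log2 ratio was 1.15 over young and 1.51 over adult wild type, beside 0.0034 and 0.10 for all genes tested. Beside Gpnmb, the largest was Rragd, a GTPase that signals nutrient state at the lysosome (2.21, 2.68 and 34.2 CPM), followed by Hexa, a subunit of a lysosomal glycosidase (41.9, 32.7 and 238 CPM). The V-ATPase subunit Atp6v1h was at 75.1, 62.3 and 335 CPM, the tetraspanin Cd63 of late endosomes at 554, 445 and 2417 CPM, the protease Ctsd at 92.3, 64.4 and 351 CPM, and the membrane glycoprotein Lamp1 at 434, 345 and 1054 CPM. Other lysosomal genes were level, such as Lamp2 (471, 417 and 476 CPM), Ctsl (417, 351 and 419.7 CPM) and Npc2 (133, 124 and 129.6 CPM).

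Because these genes were higher together, their promoters were searched for CACGTG, the core of the element through which the TFE family of transcription factors is known to act on lysosomal genes. Promoters were the RefSeq windows of 250 bases before to 50 after each start site (GRCm38.p6). Where a gene has several windows, a hit in any of them counted. The windows of 4 of the 11 genes show the arrangement, 5′ to 3′ on the strand of the gene, with CACGTG in capitals.

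Ctsd: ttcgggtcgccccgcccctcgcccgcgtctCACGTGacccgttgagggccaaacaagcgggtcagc

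Gla: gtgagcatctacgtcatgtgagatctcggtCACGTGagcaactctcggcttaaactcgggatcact

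Atp6v1a: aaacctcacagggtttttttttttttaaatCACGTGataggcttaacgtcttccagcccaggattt

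Lamp1: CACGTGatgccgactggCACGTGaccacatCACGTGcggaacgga

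The Ctsd stretch is chr7:142387890-142387955 (minus strand), with the motif 98 bases before the start. That of Gla, the lysosomal alpha-galactosidase, is chrX:134601164-134601229 (minus strand), 194 bases before the start, and that of the V-ATPase subunit Atp6v1a is chr16:44139355-44139420 (minus strand), 131 bases before it. The Lamp1 stretch, chr8:13159116-13159160 (plus strand), holds 3 copies directly before the start. Of the 10 listed genes higher than in both wild types that had a window, 5 held CACGTG, and all 5 also the longer TCACGTG, which overlaps it. Gpnmb, Cd63, Hexa, Flcn and Rragd had none in these windows. Over the whole lysosome list, whether higher or not, 22 genes had a window, of which 8 held CACGTG (36.4%) and 7 TCACGTG (31.8%). The motif was thus frequent in the list as such, and a tie to the higher levels was not tested.

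The same search over all lymphatic genes found CACGTG for 107 of the 346 genes with a window among those higher than in both wild types (30.9%; 443 genes asked). It was found for 17 of 184 among genes lower than in both (9.24%; 249 asked), 655 of 5012 among all genes tested over young wild type (13.1%; 6375 asked) and 2187 of 27025 in the whole table (8.09%). For TCACGTG, searched on both strands, the shares were 22.0%, 3.26%, 8.38% and 4.29% in the same order. Of 2 other palindromes of the same length, CAGCTG was found in 15%, 28.3%, 17.0% and 18.3%, most often among the lower genes. GACGTC was found in 12.7%, 5.43%, 10.2% and 4.97%, the same order as CACGTG, with the higher genes nearer to all genes tested. Median G+C content of the windows was 59.7%, 65.3%, 62.3% and 52.7%. A match describes the letters only, and binding was not measured.

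Of 23 listed genes of the integrated stress and p53 responses 14 were tested over young wild type, and 9 were higher and 2 lower, where 10.2% and 6.46% of all genes tested were. Apart from both wild types were 9, of which 8 were higher. Gdf15, a secreted stress cytokine, was at 278, 236 and 2219.6 CPM, 3.00 over young and 3.23 over adult wild type on the log2 scale. Ddit3, which codes for the stress transcription factor CHOP, was at 26.3, 45.0 and 166 CPM, the p53 target and cell cycle inhibitor Cdkn1a at 208, 341 and 834 CPM and Eda2r, a death receptor and p53 target, at 21.3, 31.0 and 88.1 CPM. Ddit4, an inhibitor of mTORC1, went the other way at 121, 174 and 51.5 CPM, as did Vldlr (37.1, 20.5 and 11.2 CPM). Trib3 (30.9, 24.4 and 28.2 CPM) and Mdm2 (72.8, 68.9 and 90 CPM) were within 2-fold.

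Of 11 genes of replication and mitosis tested in lymphatic cells, 7 were higher in Langerin-DTA than in young and 9 higher than in adult wild type, where 10.2% and 10.3% of all genes tested were (median log2 ratios 1.15 and 3.16). Ccnb2, a cyclin of mitosis, was at 13.1, 1.78 and 46.7 CPM, the replicative helicase subunit Mcm3 at 20.4, 21.7 and 61.8 CPM and Top2a, a topoisomerase of dividing cells, at 35.5, 5.57 and 94.5 CPM. Cells with a UMI of Mki67 or Top2a made up 7.37%, 2.45% and 13.7%, and 4.01%, 1.19% and 8.78% after thinning. With these cells left out in every library, a setting added after the data were seen, 740 genes were apart from both wild types.

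The clock list had 7 of 13 tested genes higher than in young and 5 of 13 higher than in adult wild type, beside 10.2% and 10.3% of all genes tested. Ciart was at 8.10, 9.70 and 123 CPM, the nuclear receptor Nr1d1 at 28.0, 25.6 and 268 CPM, and Dbp at 26.0, 21.4 and 164 CPM. These 3 genes are outputs and repressors of the clock whose levels change with the hour of the day, and Bmal1 (Arntl, 39.2, 48.2 and 51.1 CPM) and Clock (128, 142 and 147 CPM) were near each other in all libraries. Nr1d1 was at 63.2, 48.0 and 86.6 CPM in blood endothelium and at 58.5, 53.5 and 62.3 CPM in keratinocytes of the same libraries, and Nr1d2, at 84.9, 74.0 and 246 CPM in lymphatic cells, was at 76.8, 75.8 and 73.8 CPM in the gamma delta gate. None of the 4 other classes had a clock gene 2-fold higher than young wild type, near the 1.2% to 1.72% of all genes tested there. The hour at which ears were taken is not given in the labels, and its part in these levels was not tested.

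Of 18 genes on a list of chemokines and cytokines drawn up for fibroblasts, 4 of the 7 tested in lymphatic cells were higher than in young wild type and none lower. Of all genes tested, 10.2% were higher and 6.46% lower. Against adult wild type 4 of 8 were higher and 2, Cxcl12 and Il6, lower, where 10.3% and 6.97% of all genes tested were. Ccl2, which attracts monocytes, was at 54.2, 27.4 and 794 CPM in lymphatic cells, Ccl7 at 27.2, 17.4 and 219 CPM, the interferon-induced Cxcl10 at 1.38, 6.69 and 101 CPM and Csf1, the growth factor of macrophages, at 9.14, 13.9 and 97.6 CPM, whereas Cxcl1 was at 233, 196 and 156 CPM. The summed level of macrophage and monocyte markers in lymphatic cells was 139, 77.9 and 63.8 CPM, lowest in Langerin-DTA. Angpt2, a ligand of the receptor Tek, was at 119, 132 and 389 CPM while Tek itself was at 244, 186 and 69.2 CPM, and placental growth factor (Pgf) was at 11.1, 10.1 and 137 CPM. B2m, which pairs with the heavy chains of MHC class I, was at 252, 452 and 1199 CPM.

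Of 13 genes of lymphatic capillaries 4 were lower than in young wild type and 7 lower than in adult wild type, where 6.46% and 6.97% of all genes tested were, and 1 was higher in each comparison. Reln, a secreted guidance protein, was at 1158, 1403 and 393 CPM, the mechanosensitive channel Piezo2 at 480.2, 486 and 158 CPM and the scavenger receptor Cd36 at 55.6, 50.4 and 20.7 CPM, whereas the hyaluronan receptor Stab2 was at 5.43, 2.90 and 39.0 CPM. Lyve1 (2277, 2083 and 1305 CPM) and Flt4, the receptor of VEGF-C (333, 313 and 174 CPM), were lower by less than 2-fold. Ccl21a was at 3887, 8336 and 2442 CPM, so it was below young wild type by less than 2-fold and below adult wild type by more. Near-identical copies of Ccl21a may share its reads, which was not checked.

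Of 12 collector and valve genes tested 5 were lower than in young and 3 lower than in adult wild type, and none higher, beside the same 6.46% and 6.97% of all genes tested. Foxp2, a transcription factor of collecting vessels, was at 556, 433 and 82.8 CPM and the claudin Cldn11 at 40.2, 43.0 and 6.02 CPM. Of 7 arterial genes tested 5 were lower in each comparison, led by the Notch target Hey1 (48.6, 42.9 and 10.4 CPM), the kinase Bmx (97.4, 146 and 28.6 CPM) and the Notch ligand Dll4 (97.3, 109.9 and 29.7 CPM). Efnb2 (308, 215 and 95.5 CPM) and Nr2f2, a partner of Prox1 (742, 838 and 346 CPM), were apart from both wild types too. Of the immediate early and heat shock genes, which tissue dissociation is known to raise, 2 of 24 tested were at least 2-fold lower than in young wild type, a share near the 6.46% of all genes tested. Against adult wild type 11 of 26 were lower, where 6.97% of all genes tested were. The median log2 ratios were -0.69 and -0.96, with Fosb at 1359, 1626 and 634 CPM, and their part in the other differences was not tested.

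**Figure D3:**
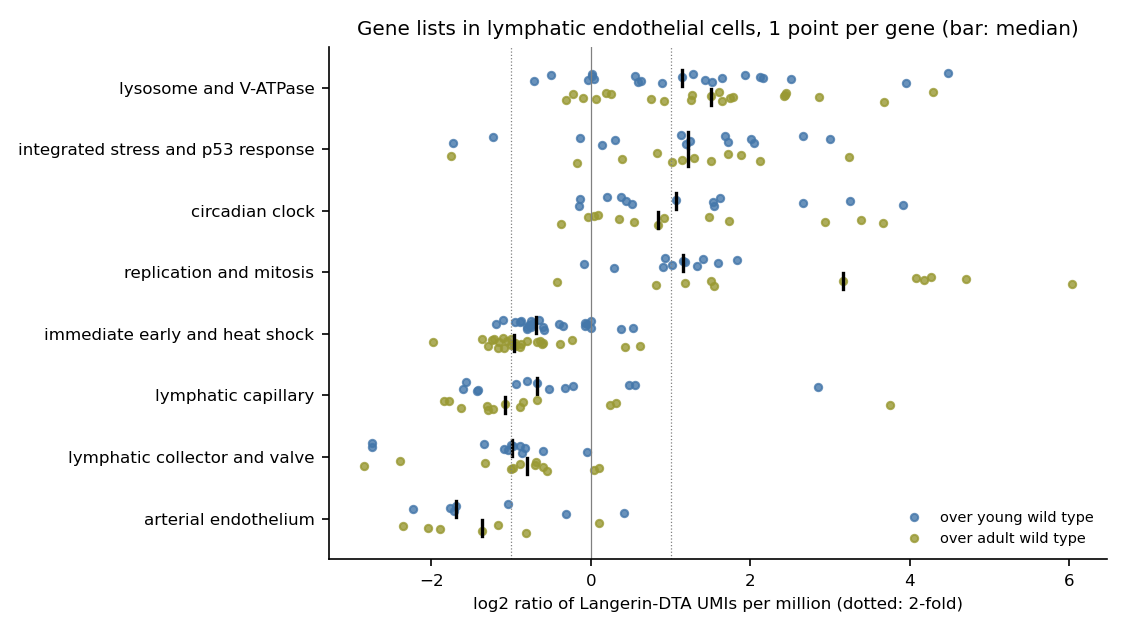
Log2 ratio of Langerin-DTA over young (blue) and over adult wild type (olive) in lymphatic endothelial cells for the genes of 8 lists, 1 point per gene tested, bars at the list medians and dotted lines at 2-fold. Medians of the lysosome list are 1.15 and 1.51, those of the arterial list -1.69 and -1.37.

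The spread of these genes over single lymphatic cells was described with genes chosen in male-called cells and cells called female. These came from other mice but from the same pooled libraries. The genes were chosen for being apart in Langerin-DTA, so a shift that way follows from the choice. Only its spread over cells is described. The 533 higher genes so chosen took a median of 3.03%, 2.88% and 5.27% of a cell's UMIs. The upper quartile in Langerin-DTA was 9.41% and the 95th percentile 20.8%, against 4.26% and 3.81% in the wild types, a long upper tail in Langerin-DTA only among the 3 libraries. The 339 lower genes took a median of 5.77%, 5.98% and 2.15%, and 81.9% of Langerin-DTA cells lay below the 5th percentile of young wild type (3.72%), while 64.0% lay above the 95th percentile for the higher genes (4.26%). With genes chosen in female-called cells and cells called male, the medians were 2.43%, 2.39% and 5.09% for 451 higher genes and 4.87%, 4.88% and 1.55% for 262 lower genes.

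**Figure D4:**
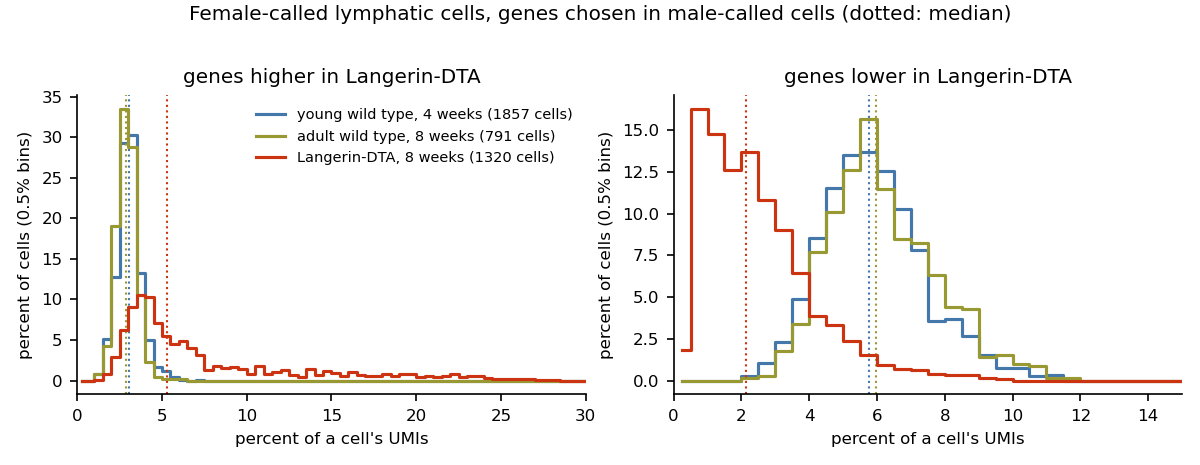
Share of each female-called lymphatic cell's UMIs (x axis, percent) from genes found higher (left) or lower (right) than in both wild types among male-called cells, as the percent of cells per 0.5% bin, with dotted medians. Langerin-DTA has a long right tail on the left, with a 95th percentile of 20.8%, and a shifted distribution on the right, with a median of 2.15% against 5.77% and 5.98%.

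With cells holding a Gpnmb UMI left out of every library, a setting added after the data were seen, 3518, 1359 and 1045 cells remained and 184 genes (100 higher and 84 lower) were apart from both wild types, against 692. Cacna1e was then at a log2 ratio of -3.56 over young wild type and Ankrd1 at 6.96, but Fabp3 came to 3.76 and 3300002A11Rik to 2.57. Cells without a Gpnmb UMI were shallower, at medians of 7704, 4969 and 7210 UMIs.

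Genes apart from 1 wild type only were few in lymphatic cells. Higher than young and near adult wild type were 30, led by Calm4 (5.17, 40.8 and 33.5 CPM), the antiproliferative gene Btg1 (312, 786 and 861 CPM) and Crip1 (432, 951 and 1103 CPM), with Tnfaip2, Ccz1 and Znhit1. Of the Calm4 UMIs 91.7%, 96.2% and 97.8% lay in 10 cells, with 25, 24 and 24 cells holding any, so a few cells carried its level in each library. Calm4 is also an epidermal gene, and the keratinocyte marker sum in lymphatic cells moved with it at 134, 375 and 338 CPM. The share of free RNA in it was not tested. Lower than young and near adult wild type were 27, led by Nudt4 (959.5, 423 and 374 CPM), the protease inhibitor Serpine2 (535, 239 and 223 CPM) and Igfbp3 (63.9, 24.6 and 25.5 CPM), with Slc45a3 and the basement membrane genes Lamb1 (245, 107 and 110.1 CPM) and Col18a1 (424, 221 and 199.6 CPM). By the rule of this set the libraries of 8 weeks sat together in these genes whatever the genotype.

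The reverse set, apart from adult and near young wild type, held 7 higher and 21 lower genes. Named among the higher were the microtubule regulator Stmn1 (108, 45.4 and 133 CPM), the type IV collagen chain Col4a2 (277, 128 and 287 CPM), Erh (101, 55.1 and 119 CPM), Adnp and Ctps. Named among the lower were Gm21541 (132, 919.6 and 158 CPM), Fxyd1 (16.3, 80.1 and 13.3 CPM), the adhesion molecule Selp (173, 588 and 187 CPM), Mndal, Ly6c1 and Ly6a (43.9, 115 and 43.8 CPM). Selp, Ly6c1 and Ly6a are also genes of blood vessels, and among blood endothelial markers in lymphatic cells Flt1 (120, 265 and 88.4 CPM) and Vwf (33.6, 71.9 and 22.0 CPM) were likewise highest in adult wild type. The sum of that list, which holds genes that lymphatic cells share such as Pecam1 and Cldn5, did not move with them. It was highest in young wild type, at 4281, 3888 and 3004 CPM. The part of blood endothelial RNA in these genes was not tested. Mndal was at 9.08, 32.9 and 10.5 CPM and reversed when cells were thinned before gating (log2 ratio 0.42 over adult wild type). Genes of the Ly6 family are near copies of each other and may share reads.

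Blood endothelium differed little from adult wild type. Higher than young wild type were 86 genes (1.5% of genes tested) and lower 39 (0.681%), but only 21 were higher (0.378%) and 6 lower (0.108%) than adult wild type. Apart from both were 7 higher and 6 lower genes, of which 1, Ccl2, passed the rules on free RNA and sex. Ccl2 was at 6.68, 2.54 and 163 CPM, with 78.2% of its Langerin-DTA UMIs in 10 of 2542 cells, and its level in lymphatic cells was 794 CPM. Gdf15 (6.19, 6.11 and 197 CPM) and Cd63 (84.5, 49.1 and 194 CPM) were also apart from both, at 8.86% and 7.63% of their level in the gate where they were highest. None of the 6 lower genes passed the rules on free RNA and sex. Among them were the pericyte gene Rgs5 (416, 149.6 and 43.0 CPM) and MHC class II genes. The pericyte and smooth muscle sum in this gate, which holds Rgs5 itself, was 921, 662 and 353 CPM. Of its other members Tagln was highest in adult wild type (293, 445 and 270 CPM). The rest were highest in young wild type and lowest in Langerin-DTA, such as Abcc9 (57.2, 19.6 and 6.24 CPM). The part of mural RNA was not tested.

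At the level of adult wild type were 57 higher and 17 lower genes. The named higher genes were Gm44511 (6.95, 44.0 and 35.8 CPM), the seryl-tRNA synthetase Sars (33.3, 74.1 and 87.1 CPM) and AC149090.1 (16.5, 42.3 and 42.6 CPM). The named lower genes were the sodium-calcium exchanger Slc8a1 (139, 50.7 and 45.3 CPM), the protease Htra1 (65.2, 20.6 and 23.5 CPM) and elastin (Eln, 549.8, 241 and 239 CPM). By the rule of this set both libraries of 8 weeks were near each other in these genes. Near young and apart from adult wild type were 10 higher genes and none lower, among them the proliferation marker Mki67 (34.5, 7.10 and 36 CPM), Nudt4 (145, 75.3 and 177 CPM), the actin-bundling Fscn1 (89.9, 43.7 and 101 CPM) and the type IV collagen chains Col4a1 (822, 314 and 685 CPM) and Col4a2 (500.4, 212 and 431 CPM). For Mki67 the log2 ratio over adult wild type was 3.1 in female-called and 0.87 in male-called cells. The share of blood endothelial cells with a UMI of Mki67 or Top2a differed less, at 10.2%, 6.51% and 7.79%, and 4.14%, 2.73% and 3.71% after thinning.

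In keratinocytes most genes apart from young wild type were at the level of adult wild type. Higher than young were 68 genes (1.2%) and lower 25 (0.442%), whereas 3 were higher (0.0553%) and 5 lower (0.0921%) than adult wild type. The 4 genes apart from both were H2-Aa (54.3, 71.8 and 5.25 CPM), H2-Eb1 and Cd74, which present antigen on dendritic cells, and Dcn of fibroblasts (26.2, 21.3 and 65.6 CPM). None of the 4 lay on the same side in male-called and female-called cells by the 25% rule, and each was at under 1% of its level in the gate where it was highest. Keratinocytes thus had the fewest genes apart from both wild types of the 5 classes.

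Of the 93 genes, 74 were within 25% of adult wild type. Fam25c was at 146, 492 and 543 CPM, Ccl27a, a skin chemokine made by keratinocytes, at 104, 325 and 319 CPM, and the matrix protease Mmp3 at 45.4, 143 and 142 CPM. Lower were Fras1, a protein of the dermal-epidermal junction (61.1, 15.1 and 16.3 CPM), Thsd4 (416, 128 and 138 CPM) and Farp1 (38.1, 14.0 and 12.5 CPM). Of 8 MHC class I genes tested 5 were higher than in young wild type (1.2% of all genes tested) and none than in adult wild type, such as B2m (190.3, 453 and 535 CPM) and H2-K1 (153, 338 and 420.2 CPM). Both libraries of 8 weeks lay within 25% of each other in these genes. Il34, the cytokine that maintains Langerhans cells, was at 96.1, 89.8 and 100.1 CPM, and Tgfb1 at 36.9, 40.6 and 36.7 CPM. Of 2 Skint genes tested over young wild type, Skint11 was higher (27.1, 66.2 and 82.2 CPM).

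Fibroblasts had 102 genes higher (1.72%) and 134 lower (2.25%) than young wild type, and 73 higher (1.27%) and 32 lower (0.557%) than adult wild type. Apart from both were 15 higher and 14 lower, of which 11 and 6 passed the rules on free RNA and sex. Ifit1, an interferon-induced antiviral gene, was at 0.655, 4.37 and 31.5 CPM (4, 21 and 162 UMIs), the lipoprotein receptor gene Lrp1b at 11.1, 16.2 and 76.9 CPM and Chad, chondroadherin of cartilage, at 74.2, 98.3 and 269 CPM. Few cells carried the first 2: 10 of 450 Langerin-DTA fibroblasts held 82.7% of the Ifit1 and 71.2% of the Lrp1b UMIs, with 35 and 34 cells holding any. Of 12 interferon genes tested, 3 were higher than in young wild type (1.72% of all genes tested), and 1 was higher and 1 lower than in adult wild type. Chad was highest in the chondrocyte gate, as were 5 of the 15, and the chondrocyte sum in fibroblasts was 1188, 589 and 1142 CPM. Lower than both were Igfbp3 (165, 126 and 42.7 CPM), Gucy1a1 (134, 41.8 and 15.5 CPM) and Rgs6 (75.5, 48.7 and 20.2 CPM). The sum of pericyte and smooth muscle markers moved with Gucy1a1 and Rgs6, which mural cells also express, at 2354, 574 and 345 CPM. The part of cartilage and mural RNA in these results was not tested.

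Near adult wild type were 54 higher and 34 lower genes of fibroblasts. The eosinophil chemokine Ccl11 was at 29.3, 102 and 111 CPM, complement C3 at 108, 441 and 368 CPM and Smim27 at 7.04, 25.8 and 32.2 CPM. The lower genes named were Acta2 (463, 68.3 and 70.5 CPM), Mrvi1 (41.1, 9.99 and 8.16 CPM) and Tpm2 (106, 21 and 24.3 CPM), genes of smooth muscle. The mural sum given above holds Acta2. Apart from adult and near young wild type were Timp4, an inhibitor of matrix proteases (70.6, 17.1 and 68.7 CPM), Osbpl3 (45.0, 17.9 and 50.9 CPM) and Pdzrn4 (203, 92.4 and 225 CPM), which were higher, and the synaptic adhesion gene Nlgn1 (22.6, 58.1 and 23.9 CPM) and the cytokine receptor chain Il1rap (81.4, 152 and 74.0 CPM), which were lower. With 361, 339 and 450 cells this class had the fewest UMIs, from 4803635 to 6106485 per library. With cells thinned before gating, 5 genes were apart from both wild types.

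Gamma delta T cells had 97 genes higher (1.72%) and 79 lower (1.4%) than young wild type, and 49 higher (0.906%) and 16 lower (0.296%) than adult wild type. Of the 37 genes higher than in both, 30 were at under 10% of the highest level of any gate, and 11 were highest in fibroblasts, 8 in the chondrocyte gate and 5 in the myeloid gate. Dcn was at 42.4, 38.2 and 181 CPM in this gate, and the fibroblast marker sum at 152, 108 and 386 CPM. The only gene to pass the rules on free RNA and sex, Spp1 or osteopontin (4.25, 2.67 and 73.4 CPM), had 98.7% of its Langerin-DTA UMIs in 10 of 1297 cells. It was below young wild type when the 5% of cells with the most UMIs were left out (log2 ratio -0.90). With cells weighted equally 12 genes were apart from both, and without the cells of most UMIs 7. The 1 gene lower than in both was the Y-linked Uty, beside a share of female-called cells of 49.9%, 48.2% and 72.1%. Uty is one of the genes that call sex and is absent from female-called cells by definition, so the rule on sex cannot bear on it.

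The 104 genes near adult wild type make up 59.1% of those apart from young. Lower were 62, among them 13 of the 17 genes of replication and mitosis tested. In all, 14 of those 17 were lower than young wild type, where 1.4% of all genes tested were. The named ones were Ube2c, which marks mitotic proteins for destruction (125, 17.2 and 14.3 CPM; -3.13, -3.41 to -2.86 over young wild type), the linker histone Hist1h1b (138, 21.4 and 19.7 CPM) and the DNA glycosylase Neil3 (38.0, 5.51 and 4.88 CPM). Cells with a UMI of Mki67 or Top2a made up 34.5%, 16.5% and 13.7%, and 21.3%, 8.73% and 9.27% after thinning. Higher were 42, with the kinase gene Styk1 (8.87, 28.6 and 32.6 CPM), the potassium channel Kcnt2 (73.8, 223 and 231 CPM) and AC149090.1 (32.2, 118 and 102 CPM). By the rule of this set Langerin-DTA lay near adult wild type in both directions. Of 21 genes of epidermal T cell residency and effector function tested, none was 2-fold from young wild type, near the 3.13% of all genes tested. Among them were Itgae, the integrin that binds E-cadherin of keratinocytes (542, 408 and 395 CPM), and Klrk1 (679, 677 and 692 CPM). Apart from adult and near young wild type were Hlf (36.3, 133 and 35.5 CPM), Rora (136, 268 and 122 CPM) and the costimulatory receptor Icos (33.3, 90.7 and 28.6 CPM).

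**Figure D5:**
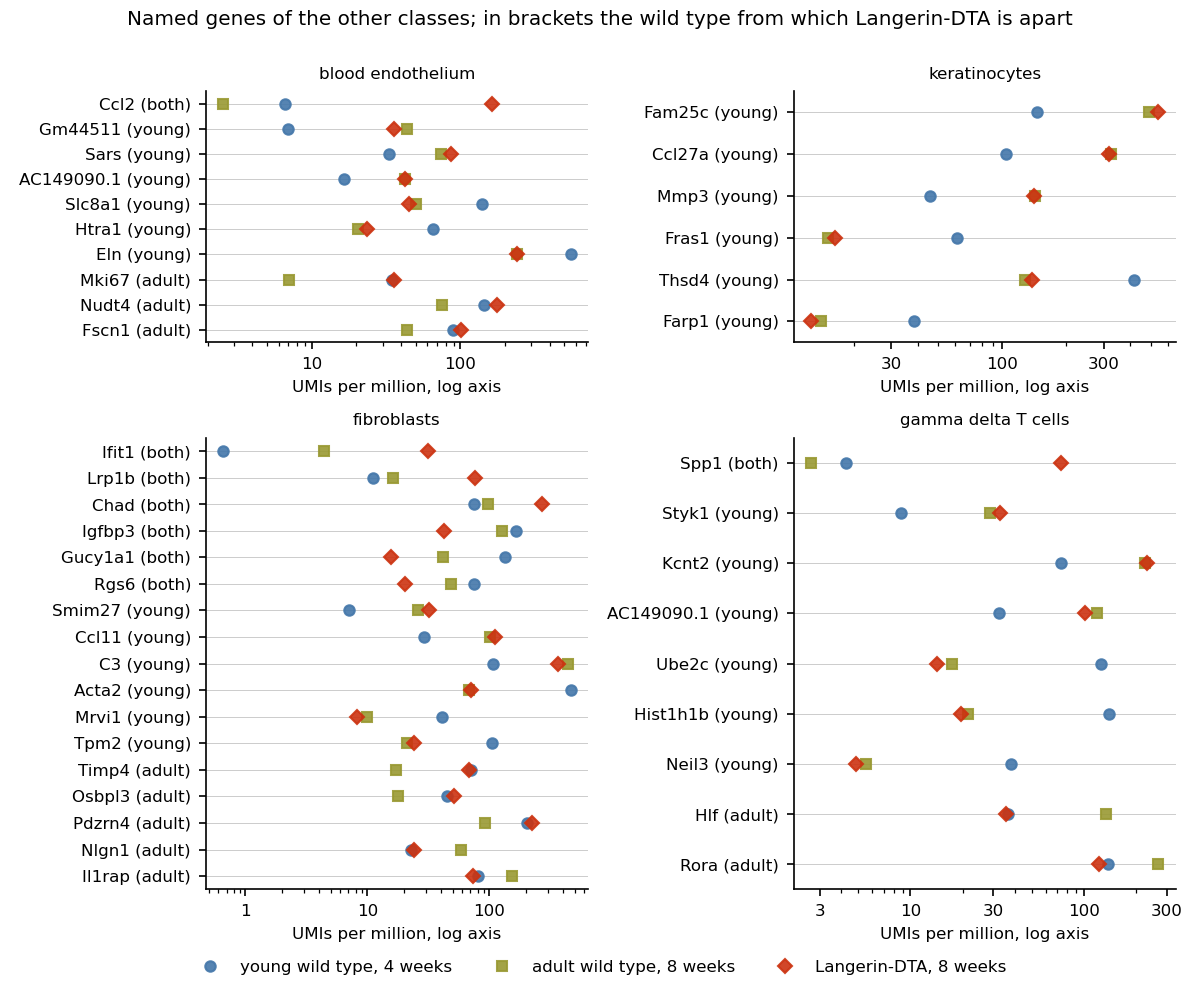
Levels of the named genes in the other 4 classes (x axis: CPM, log axis), 1 point per pooled library, with the wild type from which Langerin-DTA was apart in brackets. For genes marked young, the adult wild type and Langerin-DTA points lie together by the rule of the set, as for Ube2c in gamma delta T cells at 17.2 and 14.3 against 125.

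Some genes were apart from young wild type in nearly every class. Higher in at least 4 of 5 classes were 34 genes, 17 of them in all 5, and lower were 7, with 4 in all 5. The higher ones include the small ribosomal protein genes Rps29, Rpl38 and Rps28 and the ATP synthase gene Atp5k. In keratinocytes Rps29 was at 543, 2252 and 2254 CPM and Atp5k at 55.8, 212 and 217 CPM, and in the gamma delta gate Rpl38 was at 320.1, 963 and 981 CPM. Nmt1 was at 16.0, 74.7 and 85.8 CPM in lymphatic cells. The median log2 ratio over the 5 classes was 2.05 over young and -0.074 over adult wild type for Rps29. It was 1.95 and 0.027 for Rpl38 and 1.79 and -0.48 for Nmt1. These genes were chosen for their distance from young wild type, and Langerin-DTA lay nearer to adult wild type in each. With a single library per group, age and library cannot be told apart in them. Processed pseudogenes may share reads of ribosomal protein genes. Il31ra, a chain of the interleukin 31 receptor, was lower in all 5 classes (lymphatic 364, 80.4 and 93.8 CPM), as were Lars2 (962, 467 and 402 CPM) and Taco1 (57.1, 33.0 and 21.9 CPM). Apod was highest in fibroblasts (441, 2016 and 2111 CPM) and stood at 8.05, 9.13 and 116 CPM in the gate of gamma delta T cells.

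MHC class II genes, which Langerhans cells and other dendritic cells express, were lower than in young wild type in 4 classes. H2-Eb1 was at 176, 72.6 and 28.5 CPM in lymphatic cells, 76.5, 56.3 and 12.3 CPM in blood endothelium, 40.9, 58.2 and 6.24 CPM in keratinocytes and 142, 2.50 and 1.94 CPM in fibroblasts, where adult wild type was as low as Langerin-DTA. The sum of macrophage and monocyte markers in fibroblasts moved with it at 141, 4.16 and 3.5 CPM (Lyz2 58.8, 0 and 0.971 CPM), and it was 76.7, 31.7 and 35.4 CPM in blood endothelium and 53.5, 8.22 and 6.75 CPM in keratinocytes. The log2 ratio of H2-Eb1 over young wild type was 0.63 in female-called and -4.52 in male-called keratinocytes, and -0.53 and -5.74 in blood endothelium. Over adult wild type it was 0.26 and -6.21 in lymphatic cells, on opposite sides in female-called and male-called cells. In gamma delta T cells it was at 286, 271 and 485 CPM, highest in Langerin-DTA. Cd207 itself was at 29.8, 48.2 and 4.52 CPM in that gate and at 29.5, 24.9 and 0.0427 CPM in lymphatic cells. The summed level of Langerhans cell markers was 959, 488 and 237 CPM in lymphatic cells and 1724, 1736 and 2810.3 CPM in the gamma delta gate. How much of these levels is free RNA or doublets was not tested.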

How the data were processed

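Single cells of ear skin were measured in 1 pooled library per group. The deposited values are UMI counts per gene and cell, made by the authors with Cell Ranger 8.0.1 per the file headers (8.01 in the submitters' processing notes) on GRCm38. Not given in the sources used here are the annotation, strand use, intronic counting and whether free RNA was removed. A barcode was kept if it held 500 or more genes, 1000 or more UMIs and no more than 10% mitochondrial UMIs (12399, 12621 and 12941 of 12864, 13600 and 13540 in young wild type, adult wild type and Langerin-DTA). Counts were summed per gate and library and divided by the sum to give CPM, and ratios carry exact conditional 95% Poisson intervals. UMIs are counted once per molecule, and intervals cover counting error only. Python 3.11.15 with numpy 2.4.6, scipy 1.17.1 and pandas 2.3.3 was used, and the scripts were tested on simulated data. Named genes passed the sex rule, reached at least 10% of the highest gated class, and ranked first by the interval limit nearest 0, up to 6 per set and direction in lymphatic cells and 3 in other classes. Genes shared by at least 4 classes were named once. Some genes that met the rule are not reported here. Other genes, not held to the sex and free RNA rules, come from 32 gene lists, from the set apart from both wild types or were chosen after their values were seen (Pgf, Prox1, Apod and the MHC class II genes). The classes, lists and rules were chosen with earlier results of these data known. Promoter windows come from RefSeq (GRCm38.p6). Alternatives were 12 planned and 3 added settings. An imiquimod condition was not analysed here.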

Additional observations from a re-analysis of the deposited data

Results flagged for a closer look

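In all, 37 genes lay at least 2-fold on opposite sides of young wild type in 2 classes; the difference between classes was not tested. Ube2c had a log2 ratio of Langerin-DTA over young wild type of 1.34 in lymphatic endothelium and -3.13 in gamma delta T cells, and Hist1h1b had 1.18 and -2.82 in the same classes. For Ube2c and Hist1h1b the level in gamma delta T cells was near that of adult wild type, while in lymphatic cells Ube2c was at 14.4, 0.557 and 36.4 CPM in young wild type, adult wild type and Langerin-DTA.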

How the results depend on the processing

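No paired analysis was possible because each group is 1 library with no replicate, and no library could be left out in turn. Over 15 settings, 3 of them added after the data were seen, 91 of 136 counts stayed within 1.5 times the reported one and 45 did not. In the order lymphatic, blood endothelium, keratinocytes, fibroblasts, gamma delta T cells, the genes apart from both wild types (692, 13, 4, 29 and 38) numbered 1819, 37, 11, 103 and 80 at 1.5-fold and 296, 6, 0, 9 and 6 with a floor of 100 CPM. They numbered 2217, 458, 274, 241 and 478 with no CPM floor and at least 20 UMIs over both libraries. Genes apart from young wild type (1061, 125, 93, 236 and 176) numbered 2504, 398, 359, 649 and 483, then 487, 48, 49, 89 and 55, then 3899, 1278, 1036, 1099 and 1297. With cells thinned before gating, genes apart from both numbered 5 in blood endothelium, 5 in fibroblasts and 9 in gamma delta T cells, and genes apart from young 138 in fibroblasts. With Ptprc-bearing non-immune cells and cells of most UMIs left out, genes apart from both numbered 6 in blood endothelium, 0 in keratinocytes and 7 in gamma delta T cells. With cells weighted equally they numbered 12 in gamma delta T cells and 2 in keratinocytes. In keratinocytes they also numbered 7 with cells of several gates kept, 2 in female-called cells, 2 in male-called cells and 2 with a stricter gate. Without lymphatic cells holding Gpnmb, 184 genes were apart from both and 456 from young wild type, with fewer cells summed. Of 1105 values for named genes 3 reversed: Mndal in lymphatic cells over adult wild type (0.42, thinned) and Spp1 in gamma delta T cells over young wild type (-0.068, thinned, and -0.90 without the cells of most UMIs). The cause was not tested. Scaling by median of ratios shifted all log2 ratios over young wild type by 0.10 in keratinocytes and by less in the other comparisons. Depth limits low genes: none under 100 UMIs over both libraries was tested in the main setting.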

Other observations

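Some genes of lymphatic cells not named above were also apart from both wild types. Tslp, a cytokine that acts on dendritic cells, was at 14.1, 13.6 and 126 CPM in young wild type, adult wild type and Langerin-DTA. The metallothionein genes Mt1 (14.5, 69.2 and 202 CPM) and Mt2 (7.96, 21.6 and 46.7 CPM), which bind metals, and Igf2r, the mannose 6-phosphate receptor that sorts lysosomal enzymes (60.7, 56.4 and 126 CPM), were higher. Mt1 is also one of the genes higher than young wild type in all 5 classes. It was near adult wild type in blood endothelium, fibroblasts and keratinocytes (774.5, 1616 and 1724 CPM in keratinocytes). The growth factor Hgf (32.9, 45.8 and 4.95 CPM) and the xenobiotic receptor Ahr (54.2, 63.1 and 21.3 CPM) were lower. For Hgf the wild types lay near each other, with Langerin-DTA lowest.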
